A study of Homo sapiens with 4 samples.

Results

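The mitochondrial ribosomal protein (MRP) genes were examined in m6A maps of OE-19 cells, an established cell line of adenocarcinoma of the esophagogastric junction (AEG). Members were the protein-coding genes of GENCODE version 44 with a symbol of MRPL or MRPS followed by digits and an optional letter. This rule gave 78 of 20046 protein-coding genes, 49 MRPL and 29 MRPS. The series held 2 replicates of RNA pulled down with an anti-m6A antibody (m6A IP) and 2 replicates of input RNA, all from the same untreated line in standard medium. Only the 2 IP samples had peak lists to analyse, and the input samples were not analysed here. The lists carry no read numbers, so depth and gene expression are unknown, and the identity of the cells could not be checked against marker expression. With 1 group of 2 libraries, no test between conditions could be made, and all values below are descriptions. The study calls its replicates biological, but whether they came from separate cultures is not given in the sources used here, and the spread between them may be technical.

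Mitochondria carry their own ribosome, which makes the few proteins encoded in mitochondrial DNA, all of them parts of the respiratory chain machinery. Its RNA is made inside the organelle, but its proteins are encoded in the nucleus, translated in the cytosol and imported. Some of these proteins have relatives in bacterial ribosomes, and others were added later in mitochondrial evolution. MRPL and MRPS name proteins of the large and of the small subunit, although MRPS18A and MRPS30 are now placed in the large subunit, and MRPS36 is now regarded as part of a metabolic enzyme complex. N6-methyladenosine (m6A) is a base mark on messenger RNA, written mostly at adenines of the DRACH motif (where D stands for any base but C, R for a purine and H for any base but G), of which GGAC is a common form, and it is known to gather in long exons and near stop codons.

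To show sequence near the strongest peaks, the GGAC nearest to the replicate 1 summit was taken, from a search of 100 nt to either side. This was done for the 8 members ranked highest by the geometric mean of their best fold enrichment in both replicates. Each line thus holds GGAC by construction. Each line gives 30 bases of hg38 on the strand of the gene, 5′ to 3′, with GGAC in capitals.
MRPL35: tcctctagaccagGGACaggtgtagagata
MRPS27: caaccccgtgccaGGACtcagcagtggcct
MRPL44: ctatccgaacaagGGACatctttttcacag
MRPL46: ccccaggcaatgcGGACagagagtaacctc
MRPL51: cacttcactttcaGGACctcaaatctcctc
MRPL45: tttcccacagcagGGACtgtgagagacaac
MRPS12: gcctcttccatcaGGACcactattaagcca
MRPL36: agaagcgctgcaaGGACtgttacctggtga

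The MRPL35 window (chr2:86212632-86212661, plus strand) lay in the 3′ UTR, and its GGAC adenine was 18 nt from the summit. In MRPS27 (chr5:72220837-72220866, minus strand) the adenine was 81 nt from the summit and 60 nt past the first base of the stop codon. In MRPL44 (chr2:223959727-223959756, plus strand) it lay in coding sequence (CDS), 37 nt from the summit. The motifs of MRPL45 (chr17:38322875-38322904, plus strand), in the 3′ UTR, and of MRPS12 (chr19:38932831-38932860, plus strand), 148 nt past the stop codon, were 41 nt and 25 nt from their summits. Those of MRPL46 (chr15:88459772-88459801, minus strand) and MRPL36 (chr5:1798689-1798718, minus strand) lay in CDS before the stop codon, 80 nt and 78 nt from their summits. The MRPL51 motif (chr12:6493606-6493635, minus strand) was 97 nt away, outside the principal transcript of that gene. The MRPL51 summits lay also in exons of NCAPD2 on the opposite strand, so the strand shown may not be that of the peak.

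First, the members with an m6A peak were counted. A gene was counted when a peak summit lay in any of its annotated exons. In total, 25 of the 78 MRP genes (32.1%, 95% Wilson interval 22.7% to 43.0%) carried an exonic peak in each replicate, where the share was 33.4% for all protein-coding genes. In replicate 1 alone the number was 38 (48.7%, against 42.4% of all protein-coding genes), and in replicate 2 it was 27 (34.6%, against 34.1%). Of the 25 genes, 24 had peaks in the 2 lists that overlapped by at least 1 bp. The exception was MRPL54, whose summits lay in exon 3 in replicate 1 and in exon 1 in replicate 2. The count of 24 is given without its value over all protein-coding genes. By summits, 53.8% and 90.9% of those of members in replicates 1 and 2 belonged to overlapping peaks, beside 60.5% and 95.9% over all protein-coding genes. The intervals here and below cover counting error over genes or summits only.

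MRP genes are short, and short genes carried fewer peaks. The median exonic length, counted over the exons of all transcripts of a gene, was 2544 nt for the members and 4416 nt for all protein-coding genes. When each member was given the share of the other protein-coding genes in its length bin (20 bins), the share expected in both replicates was 24.1%, or 18.8 genes beside the 25 observed. These other genes were taken whether or not they are expressed in OE-19 cells, which the lists do not show. In replicate 1 the observed and like-length shares were 48.7% and 32.4%, and in replicate 2 they were 34.6% and 24.8%. The like-length share lay inside the interval of the observed share for both replicates together. It lay below that interval in replicate 1 (37.9% to 59.6%) and, narrowly, in replicate 2 (25.01% to 45.7%). With length taken from the MANE Select transcript, the transcript that annotation groups chose to represent each gene, the like-length share was 19.2%, below the interval.

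Within the MRP genes, a peak in both replicates was most frequent among the shortest, unlike in other genes, although the intervals overlapped. The split by length was chosen after the values were seen. When the members were ordered by exonic length into 3 groups of 26, a peak in both replicates was found in 13 of the shortest (50%, interval 32.1% to 67.9%; 582 to 1757 nt), 7 of the middle (26.9%, 13.7% to 46.1%) and 5 of the longest (19.2%, 8.51% to 37.9%; 3080 to 19524 nt). The shares for other genes of like length were 11.8%, 22.7% and 37.9%. Those genes, too, were taken without regard to expression, so length and expression cannot be told apart in this comparison. By the length of the MANE Select transcript, the counts were 11, 7 and 7 of 26, beside like-length shares of 7.58%, 16.8% and 33.3%. Their intervals were 25.5% to 61.1% for the shortest group and 13.7% to 46.1% for each of the others. The lower count in the longest than in the middle group was thus absent on that length, while the shortest group held the most genes with peaks on both. On either length the intervals of the 3 groups overlapped.

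**Figure D1:**
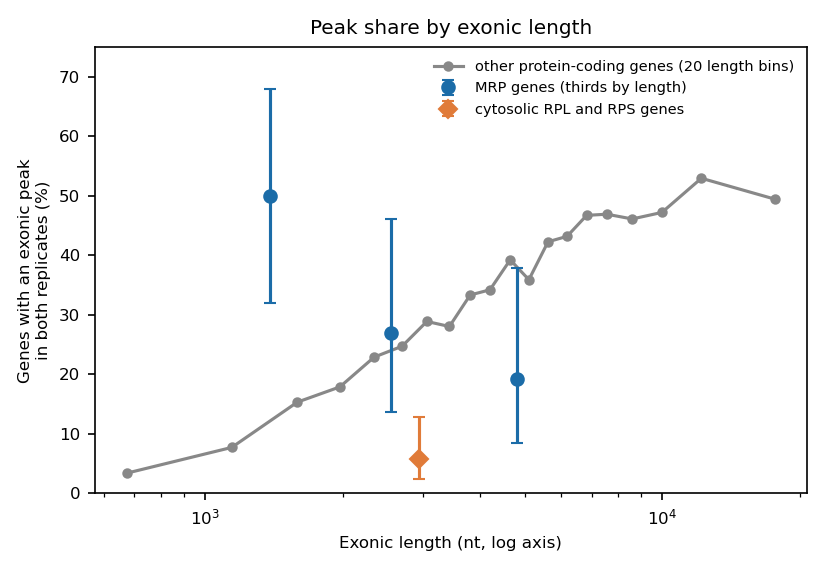
Share of genes with an exonic m6A peak in both replicates (y axis, percent) against exonic length (x axis, nt, log scale). Grey points are other protein-coding genes in 20 length bins at the bin's median length, blue points are MRP genes in 3 groups of 26 and the orange diamond is the cytosolic RPL and RPS genes, with 95% Wilson intervals. The grey line stands at 3.41% in the shortest bin and 49.4% in the longest, whereas the blue points fall from 50% to 19.2%, and the diamond lies at 5.75%.

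The count depended on the strength asked of a peak. At a fold enrichment, the caller's ratio of signal to local background, of at least 5, 4 of 78 MRP genes (5.13%) kept a peak in both replicates, against 19.3% of all protein-coding genes and 13.1% of genes of like length, so the order of members and like-length genes was turned. These 4 were MRPL35, MRPS27, MRPL44 and MRPL46. When only summits in exons of a single gene were used, 20 members (25.6%) had a peak in both replicates, against 29.8% of all protein-coding genes and 20.6% of like-length genes.

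The cytosolic ribosomal protein genes, taken by symbol, were set beside them. These genes mostly encode proteins of the ribosome of the cytoplasm. The symbol rule also took in related genes, such as RPL7L1 and RPL36AL, whose products need not belong to that ribosome. Only 5 of 87 RPL and RPS genes (5.75%, interval 2.48% to 12.8%) had an exonic peak in both replicates, although their median exonic length of 2930 nt exceeded that of the MRP genes and their like-length share was 28.1%. The intervals of the 2 families did not overlap. At a fold enrichment of at least 5 the shares were closer, 5.13% (4 of 78) for the MRP genes and 2.30% (2 of 87) for the cytosolic genes. The 5 genes were RPS29, RPL37, RPL36AL, RPL7L1 and RPL13. Their best fold enrichment was 6.42 in replicate 1 and 9.85 in replicate 2 for RPS29, and 5.41 and 5.33 for RPL37. The summit of RPS29 also lay in an exon of the pseudogene RPL32P29. By MANE Select transcript the cytosolic genes were the shorter family, with a median of 848 nt against 1242 nt, and their longest exon had a median of 344 nt against 691 nt. Transcript abundance was not measured in these files, and more of the mark cannot be told apart from more RNA in which to detect it.

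By subunit name, 17 of 49 MRPL genes (34.7%, interval 22.9% to 48.7%) and 8 of 29 MRPS genes (27.6%, 14.7% to 45.7%) had a peak in both replicates, beside like-length shares of 22.4% and 27.3%. Of the 46 members with a bacterial relative, 12 had one (26.1%, 15.6% to 40.3%; like length 24.5%), and of the 32 without, 13 (40.6%, 25.5% to 57.7%; like length 23.9%). Within each of these pairs the intervals overlapped.

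The large-subunit genes held 2 of the 3 strongest members. The best peak of MRPL35, a protein with a bacterial relative, reached a fold enrichment of 14.5 (replicate 1) and 11.3 (replicate 2), the highest of all members in both. It covered chr2:86212310-86212743 in replicate 1 and chr2:86212281-86212747 in replicate 2, in the last of 4 exons. Its summits lay deep in the 3′ UTR, 1963 and 1930 nt past the stop codon, so this peak differed in place from most other member peaks. MRPL44, which has a fold related to RNase III, had values of 12.2 and 8.53. Its peak (chr2:223959516-223959933 and chr2:223959613-223959918) lay inside the CDS, in exon 2 of 4, which is 469 nt long.

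MRPL46 and MRPL51, both without a bacterial relative, followed. The MRPL46 peak (chr15:88459558-88459838 and chr15:88459540-88459826) reached 6.67 and 6.0 in the last exon, 91 and 38 nt before the stop codon. Its summits also lay in exons of ENSG00000173867, an overlapping gene on the same strand. For MRPL51 (chr12:6493540-6494029 and chr12:6493612-6493796) the values were 7.11 and 4.49. These summits lay in exons of NCAPD2 on the opposite strand and outside the MANE Select transcript of MRPL51. The lists have no strand, so the gene of these peaks is uncertain. MRPL45, which helps hold the ribosome at the inner membrane, had 4.58 and 6.38 (chr17:38322785-38323057 and chr17:38322593-38323061), 256 and 233 nt past the stop codon, and was the strongest of the members with the higher value in replicate 2.

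Of the other large-subunit members with a peak in both replicates, MRPL36 reached 6.40 (replicate 1) and 3.85 (replicate 2), with summits around the stop codon. MRPL12, the protein of the flexible stalk that receives translation factors, had 5.57 and 4.04 at a peak in exon 1, which lay also in an exon of ENSG00000262660 on the same strand, and 4.03 and 2.99 at a second peak near the stop codon that lay in MRPL12 alone. Values for MRPL54 were 5.01 and 4.11, although at different places as described above. MRPL16, MRPL27 and MRPL14 are core proteins with bacterial relatives. They had 5.09 and 3.13, 3.87 and 3.27, and 3.20 and 2.95, each in the last exon within 200 nt of the stop codon.

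Among the remaining large-subunit genes the values were 4.72 and 3.14 for MRPL34, 4.45 and 3.13 for MRPL50, and 2.97 and 3.33 for MRPL17. Below these by geometric mean came MRPL37 with 2.38 and 2.83, in exon 1, MRPL41 with 2.67 and 2.04, and MRPL57 with 2.76 and 1.65. MRPS18A, counted here by name among the MRPS genes, had 3.03 and 2.43, and its summits lay in an exon of RSPH9 on the opposite strand. For all these genes except MRPL37, the summits lay within 200 nt of the stop codon in both replicates.

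Among the small-subunit genes, MRPS27, which has a pentatricopeptide repeat fold, was strongest. Its values were 14.2 in replicate 1 (chr5:72220639-72221046) and 7.45 in replicate 2 (chr5:72220759-72221003), with summits 21 nt before and 32 nt past the stop codon in the last of 11 exons. MRPS12, a protein of the decoding site, had 6.10 and 4.29, and its summit fell on the same base in both replicates, 173 nt past the stop codon. These 2 genes had their best peaks in last exons of 1746 and 836 nt.

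MRPS25 had the most peaks, with 6 in replicate 1 and 3 in replicate 2, and best values of 6.53 and 3.19. The value of 6.53 belonged to a summit in the 3′ UTR with no overlap in replicate 2, whereas the peak near the stop codon had 4.55 and 3.19. Both of these lay also in exons of ENSG00000289750 on the same strand. Other MRPS25 summits, 4 of replicate 1 and 2 of replicate 2, fell within NR2C2 exons on the opposite strand and outside the MANE Select transcript. MRPS34 had 5.92 and 2.75, the largest log2 ratio between replicates among the 25 genes, 1.11. MRPS2 had 5.22 and 3.87, MRPS26 4.35 and 3.63, and MRPS28, whose summits lay also in exons of ENSG00000276418 on the same strand, 3.33 and 3.89.

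Over the 25 genes, the best fold enrichment ranged from 2.38 to 14.5 in replicate 1 (median 5.01) and from 1.65 to 11.3 in replicate 2 (median 3.63). It was higher in replicate 1 for 21 genes and higher in replicate 2 for 4, which were MRPL45, MRPS28, MRPL17 and MRPL37. The median log2 ratio of replicate 1 over replicate 2 was 0.43 ± 0.40 (SD over the 25 genes). Across 28 pairs of member peaks, matched by mutual best overlap between the lists, the median log2 ratio was 0.45, beside 0.44 over 10853 pairs of all protein-coding genes, so the offset between the lists was of like size in the members. Log2 fold enrichment of these 28 pairs had a Pearson's r of 0.83 and a Spearman's rho of 0.70, beside 0.70 and 0.69 over all pairs. The points share the same 2 libraries and several come from 1 gene. The summits of a pair lay a median of 24 nt apart in the members and 26 nt over all pairs.

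**Figure D2:**
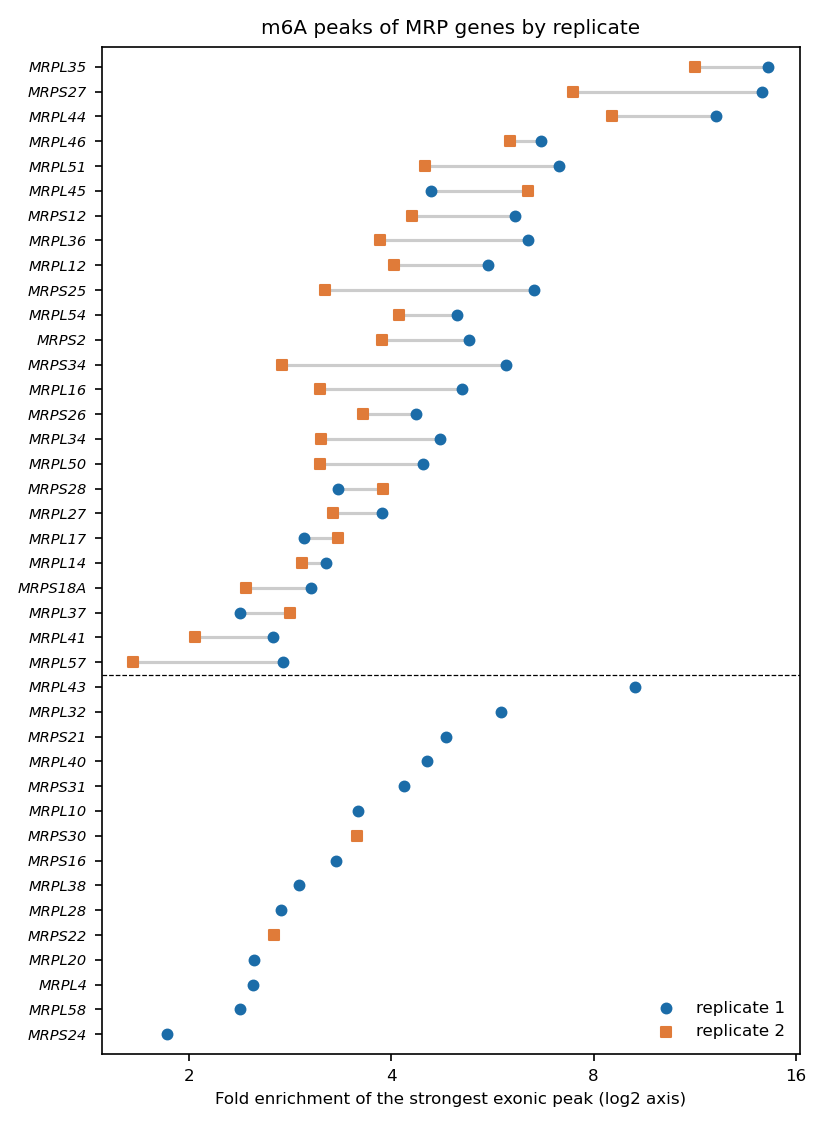
Fold enrichment of the strongest exonic peak of each MRP gene (x axis, log2 scale) in replicate 1 (blue circles) and replicate 2 (orange squares). The 25 genes above the dashed line have a peak in both replicates, ordered by geometric mean from MRPL35 (14.5 and 11.3) to MRPL57 (2.76 and 1.65), and the 15 genes below it have a peak in 1 replicate.

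Another 15 members had an exonic peak in 1 replicate, 13 in replicate 1 and 2 in replicate 2. Those in replicate 1 had a best fold enrichment from 1.86 to 9.20, with a median of 3.31. The highest value belonged to MRPL43, at 9.20, but this summit lay in an exon of SEMA4G on the opposite strand, and the peak within the MANE Select transcript of MRPL43 had 2.62. Next came MRPL32 with 5.82, near the stop codon, and MRPS21 with 4.83, MRPL40 with 4.51 and MRPS31 with 4.18. MRPL10, at the base of the stalk, had 3.57, MRPS16 had 3.31, MRPL38 had 2.91 and MRPL28 had 2.74. MRPL20, MRPL4, MRPL58 (a peptidyl-tRNA hydrolase built into the large subunit) and MRPS24 had peaks in replicate 1 with lower values. The members found in replicate 2 alone were MRPS30, with 3.56 near the stop codon, and MRPS22, with 2.68 at a summit in an exon of COPB2 on the opposite strand. For MRPS22, and for the stronger MRPL43 peak, the gene of origin is therefore uncertain. The summit of MRPS21 lay outside the MANE Select transcript of that gene. Those of MRPL38 and MRPS24 lay also in exons of another gene on the same strand.

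The remaining 38 members had no exonic summit in either list. Of the MRPL genes these were MRPL1, MRPL2, MRPL3, MRPL9, MRPL11, MRPL13, MRPL15, MRPL18, MRPL19, MRPL21, MRPL22, MRPL23, MRPL24, MRPL30, MRPL33, MRPL39, MRPL42, MRPL47, MRPL48, MRPL49, MRPL52, MRPL53 and MRPL55. Of the MRPS genes they were MRPS5, MRPS6, MRPS7, MRPS9, MRPS10, MRPS11, MRPS14, MRPS15, MRPS17, MRPS18B, MRPS18C, MRPS23, MRPS33, MRPS35 and MRPS36. Without read numbers, a gene with too few reads to call a peak cannot be told from one without the mark. The median longest exon of these 38 genes was 852 nt (quartiles 353 and 1633), beside 693 nt (482 and 1130) for the 25 genes with a peak in both replicates, and the median number of exons was 6 beside 4. Summits outside every annotated exon but inside a member gene numbered 7 in 5 genes in replicate 1 and 4 in 4 genes in replicate 2. Of 79 annotated MRP pseudogenes, 0 had an exonic summit in either list, which by the limit of 3 counts allows a share of up to 3.8%. Neither the pseudogene count nor the counts outside exons were made for other genes, so they cannot be set against a background.

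Next, the strength of all member peaks was compared with the rest of the lists. The 52 exonic summits of members in replicate 1 had a median fold enrichment of 4.01 (quartiles 2.81 and 5.12), beside 5.18 (3.62 and 7.62) for the 19393 summits of all protein-coding genes. In replicate 2 the 33 member summits had a median of 3.19 (2.83 and 4.04), beside 4.70 (3.33 and 6.60). Genes of like exonic length gave 5.08 and 4.64, so the members lay lower in both replicates. The statistical support of the member peaks was not lower, with a median −log10 q of 12.4 in replicate 1 and 16.8 in replicate 2, beside 12 and 13.5 over all protein-coding genes. Fold enrichment and q are the authors' values from the peak caller. Of the member summits, 53.8% in replicate 1 (interval 40.5% to 66.7%) and 90.9% in replicate 2 (76.4% to 96.9%) belonged to peaks overlapping one in the other list, beside 60.5% and 95.9% over all protein-coding genes.

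The members' peaks were then placed along the transcript. On the MANE Select transcript, taking as a window all bases up to 200 nt from the stop codon, 27 of 45 member summits in replicate 1 (60.0%, interval 45.5% to 73.0%) and 21 of 29 in replicate 2 (72.4%, 54.3% to 85.3%) lay in the window. Over all protein-coding genes the shares were 24.7% and 27.2%. Because these transcripts are short, the window takes up much of them, 26.8% of the bases of the MRP transcripts with summits in replicate 1 and 24.9% in replicate 2, beside 8.90% and 8.41% for all protein-coding genes. Relative to the bases, the window was 2.24 times and 2.90 times as rich in summits in the members, and 2.77 times and 3.23 times over all protein-coding genes. Genes of like exonic length had 36.4% and 40.5% of their summits in the window, below the intervals of the members. That match used the exons of all transcripts, whereas the window lies on the MANE Select transcript. It therefore need not equalise the share of bases in the window, and relative to the bases the members were not richer than all protein-coding genes. Of the 25 genes with a peak in both replicates, 18 had a summit in the window in each. No such count over all protein-coding genes is given here, so it cannot be set against a background.

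The other regions held fewer member summits. CDS outside the window held 13 of 45 in replicate 1 (28.9%) and 5 of 29 in replicate 2 (17.2%), beside 31.2% and 29.0% of the bases. Over all protein-coding genes it held 47.0% and 46.2% of the summits, beside 41.7% and 41.4% of the bases. The rest of the 3′ UTR held 5 (11.1%) and 3 (10.3%), beside 38.8% and 43.0% of the bases. Over all protein-coding genes it held 19.2% and 20.9% of the summits, beside 44.3% and 45.1% of the bases. A share of 3′ UTR summits below the share of bases was thus not particular to the members. No member summit lay in the 5′ UTR of these transcripts, 0 of 45 and 0 of 29, where all protein-coding genes had 9.11% and 5.71%. The 5′ UTR made up 3.29% and 3.07% of the bases of the member transcripts, beside 5.10% and 5.04% for all protein-coding genes. Taking 3 counts as the limit that a count of 0 allows, shares of up to 6.67% and 10.3% could have been missed, and the upper Wilson bounds were 7.87% and 11.7%. Summits outside the MANE Select transcript, 7 in replicate 1 and 4 in replicate 2, were left out here.

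**Figure D3:**
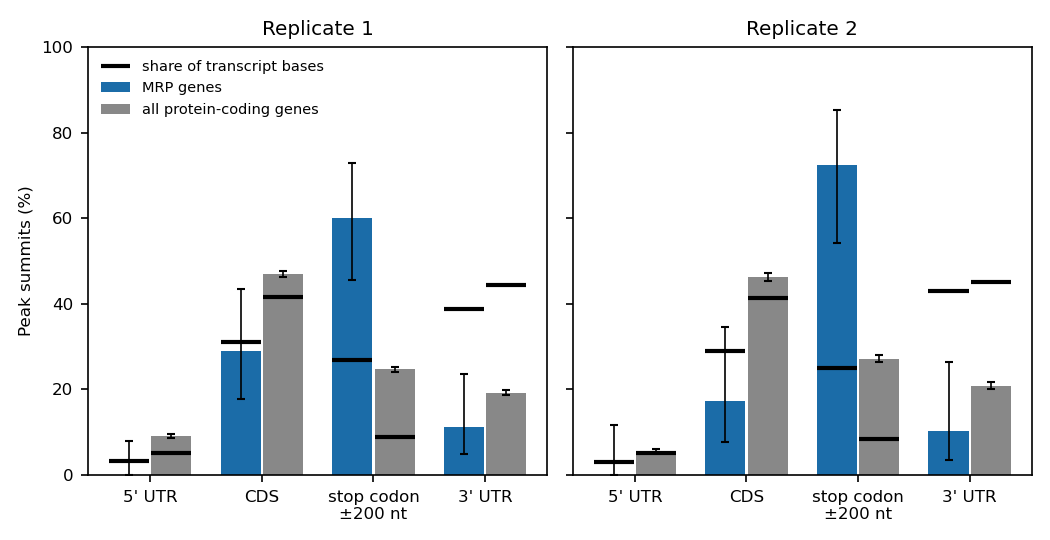
Share of exonic peak summits (y axis, percent) in each transcript region (x axis) for MRP genes (blue) and all protein-coding genes (grey), with 95% Wilson intervals, replicate 1 at left and replicate 2 at right. Black bars give the share of transcript bases in the region. MRP summits are mostly in the stop codon window, 60.0% and 72.4%, where the black bars stand at 26.8% and 24.9%.

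Most member summits lay in the last exon, 33 of 45 (73.3%, interval 59.0% to 84.0%) in replicate 1 and 23 of 29 (79.3%, 61.6% to 90.2%) in replicate 2. The shares over all protein-coding genes were 51.5% and 60.4%, and over genes of like length 58.2% and 70.3%. First exons held 8 and 4 summits, and internal exons 4 and 2. Overlap between the lists was then counted by place, without a test of the difference. In replicate 1, 3 of the 8 first-exon summits belonged to a peak that overlapped one of replicate 2, beside 21 of the 33 last-exon summits. Over all protein-coding genes the counts were 975 of 2463 and 6492 of 9065, so lower overlap in first exons was not particular to the members. Within the stop codon window 18 of 27 replicate 1 summits of members (66.7%) overlapped, and in CDS outside it 4 of 13 (30.8%). The shares over all protein-coding genes were 70.7% and 60.5%.

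**Figure D4:**
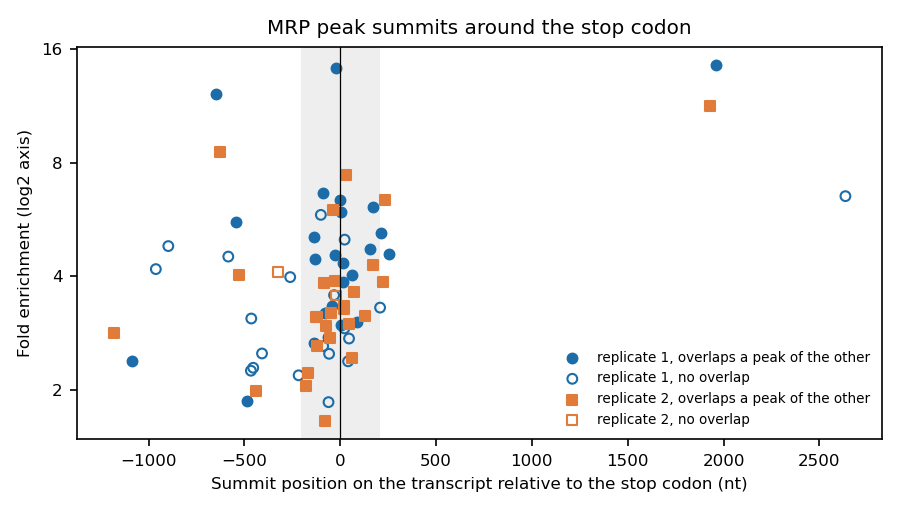
Position of each MRP peak summit on the MANE Select transcript relative to the first base of the stop codon (x axis, nt) and its fold enrichment (y axis, log2 scale) for replicate 1 (circles) and replicate 2 (squares). Filled symbols overlap a peak of the other replicate, open ones do not, and the shaded band reaches 200 nt to either side of it. The pair at upper right is MRPL35, 1963 and 1930 nt past the stop codon, and the pair at −646 and −628 nt is MRPL44.

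The GGAC core motif was searched within 50 nt of each summit on the strand of the gene, in the genomic sequence. It was present at 28 of 52 member summits in replicate 1 (53.8%, interval 40.5% to 66.7%) and 16 of 33 in replicate 2 (48.5%, 32.5% to 64.8%). All protein-coding genes had 49.7% and 51.7%, inside these intervals. DRACH was present at 78.8% of member summits in each replicate, beside 85.5% and 88.8%. As in the sequences shown above, the summit and the motif were not always close, and 12 of the 25 genes with a peak in both replicates had a GGAC within 50 nt of a summit in each. That count, too, is given without its value over all protein-coding genes. A match is a description of the sequence and does not show that this base is methylated.

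Some summits fell in exons of more than 1 gene. This held for 17 of 52 member summits (32.7%) in replicate 1 and for 9 of 33 (27.3%) in replicate 2, beside 12.8% and 12.4% over all protein-coding genes and 22.1% and 22.7% over genes of like length. Of these, 8 and 5 lay in exons of a gene on the opposite strand.

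Finally, other genes of mitochondrial translation were examined. In a list of 50 genes, 31 (62.0%, interval 48.2% to 74.1%) had an exonic peak in both replicates, beside 32.9% of genes of like length. Their median exonic length was 4026 nt, above that of the MRP genes. Of 29 factors that assemble or modify the mitochondrial ribosome and its RNA, 22 had a peak in both replicates (75.9%, interval 57.9% to 87.8%, like length 33.1%), an interval that did not overlap that of the MRP genes. Of 16 translation factors 7 had one (43.8%, interval 23.1% to 66.8%, like length 34.5%). Of 5 ribosomal proteins with another name 2 had one, DAP3 and CHCHD1 (40%, interval 11.8% to 76.9%, like length 26.7%). In the lists of 16 and 5 genes the like-length share lay inside the interval, whereas for the 29 factors it lay below it.

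Among the strongest of these were enzymes that act on mitochondrial ribosomal RNA. RPUSD4, a pseudouridine synthase, reached 14.4 (replicate 1) and 9.61 (replicate 2). MRM3, a ribose methyltransferase, had 14.6 and 8.95, and DDX28, an RNA helicase, had 11.3 and 6.80. MTERF4, which works with a ribosomal RNA methyltransferase, had 11.7 and 6.35. They were followed by TACO1 (9.64 and 7.46), TFB1M (10.04 and 6.72), MRM2 (8.19 and 6.88), METTL15 (11.8 and 4.44), FASTKD2 (8.91 and 5.45), TRUB2 (8.61 and 5.35), TSFM (6.91 and 6.14) and RBFA (7.83 and 5.20), with replicate 1 given first. For TACO1, TFB1M, MRM2, TSFM and RBFA, a summit lay also in an exon of another gene, so the gene of origin is less certain there. At a fold enrichment of at least 5, 15 of the 50 genes kept a peak in both replicates, beside the 4 of 78 MRP genes. When only summits in exons of a single gene were used, 26 of the 50 kept one, beside 20 of the 78 MRP genes.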

How the data were processed

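meRIP-seq peak lists of the 2 m6A IP samples were used, 24607 peaks in replicate 1 and 19318 in replicate 2. The study's methods name TopHat2 and MACS2 with default settings on hg38, whereas the submitters' processing notes list fastp, HISAT2 and MACS2. The releases, and whether the input was the control, are not given in the sources used here. For each peak the authors deposited a summit offset, a fold enrichment (ratio of signal to local background) and −log10 values for the p-value and q-value. The highest q was 0.0491 and 0.0497, in turn. Fold enrichment depends on the background, so lists can differ without any change in m6A.

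The lists hold no read numbers, so depth is unknown. All 24 chromosome names matched hg38 and 0 peaks ran past an end. Summits were assigned to GENCODE version 44 exons, each protein-coding gene at a summit being counted. Expected shares used 20 bins of exonic length. Motif shares used a search within 50 nt of the summit, and the printed sequences a search within 100 nt. Regions used the MANE Select transcript, or else the canonical one, since the transcript with the longest coding sequence was often unusual. Intervals are 95% Wilson intervals. No test was run. All members were named, with coordinates for the 6 strongest. Values were given for those with a peak in both replicates, for the 10 strongest with a peak in 1 only, and for MRPS22. Cytosolic genes with peaks in both replicates and the 12 strongest of the other list were named too, and DAP3 and CHCHD1 were added after their values were seen. The members and lists were chosen with earlier results of these data known. The scripts were tested on simulated data. Python 3.11.15, numpy 2.4.6, pandas 2.3.3, scipy 1.17.1, pysam 0.24.0 and matplotlib 3.10.9 were used.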

Additional observations from a re-analysis of the deposited data

How the results depend on the processing

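No paired analysis was possible because only the IP samples had values. Of 86 values under alternatives, 64 stayed within a tolerance of the reported ones and 22 did not. The tolerance was 1.5 times for a count of genes, the 95% Wilson interval for a share and the SD between replicates for a median, so it was wide for the few member summits and narrow for the like-length share, whose interval was taken over all other genes. A fold enrichment of 5 or more left 4 members in both replicates, 15 in replicate 1 and 5 in replicate 2, 2 cytosolic genes, 15 of the other mitochondrial genes, a like-length share of 13.1% and a stop codon share of 40.0% (2 of 5 summits) in replicate 2. Leaving out a replicate gave 27 to 38 members, 5 to 8 cytosolic genes and a like-length share of 24.8% to 32.4%, the higher values without replicate 2. The like-length share was 21.8% at q of 1e-05 or less, 25.2% with any exon overlap, 20.6% with summits in exons of a single gene, 19.8% by the transcript with the longest coding sequence and, added after seeing the data, 19.2% by MANE Select transcript. The members' share exceeded it in all of these except at a fold enrichment of 5 or more. A stop codon window of 100 nt held 48.3% of replicate 2 summits. GGAC within 100 nt was found at 86.5% and 81.8% of summits in replicates 1 and 2, DRACH at 78.8% in each, and GGAC at 67.9% of overlapping replicate 1 peaks. The cause of these shifts was not tested, apart from those that the setting itself makes. The small number of member peaks sets the precision.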
